A study of Mus musculus with 24 samples.

Results

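Among 20961 genes measured in mouse heart, 26 were high in the strain NZO/HlLtJ and low in C57BL/6J and CAST/EiJ. They were selected on their strain means in CPM (the expected count of a gene divided by the library's total count, times 1000000). The mean over the 8 NZO/HlLtJ libraries had to be at least 1 CPM and at least 4 times the higher of the other 2 strain means. Of 48 genes that met both thresholds, 22 were removed by symbol, since predicted, ribosomal, mitochondrial, histocompatibility, potassium channel, collagen, globin and hepcidin genes and Acta1 were left out by name. Of the 26 genes that remained, 24 are annotated as protein-coding, BC018473 is an antisense RNA gene and BC064078 is a transcribed pseudogene. Because the strain means chose these genes, the strain differences below are descriptions and carry no test.

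The libraries came from hearts of male and female mice labelled as wild type and as given no treatment other than diet. C57BL/6J is widely used in the laboratory, CAST/EiJ descends from wild mice of another subspecies, and NZO/HlLtJ becomes obese through variants at many loci. All are inbred. From week 6 of age the mice ate a diet labelled 10% fat plus fiber or 44% fat plus fiber, which the treatment protocol describes as control and as high in fat and sugar, and hearts were taken at week 15. Strain, sex and diet define 12 groups of 2 libraries. The labels do not say whether both libraries of each group are from different animals, so the spread behind each p-value is that between these samples and may be partly technical.

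Total counts lay between 30205073 and 52254058 per library, and markers of heart muscle cells were abundant in all 24 libraries, with a summed level of 65412 to 80977 CPM over 10 markers. Summed fibroblast markers were higher in NZO/HlLtJ, at 2848 to 3909 CPM against 2056 to 2445 CPM in C57BL/6J and 1737 to 2197 CPM in CAST/EiJ, with 10 of 10 markers at their highest strain mean there. Of 12 Schwann cell and nerve markers, 8 had their highest mean in NZO/HlLtJ, with sums of 24.3 to 36.5 CPM there, 18.2 to 27.8 CPM in C57BL/6J and 14.2 to 25.6 CPM in CAST/EiJ. The part of these markers in the levels below was not tested, and in bulk tissue fewer cells of a type and less RNA per cell cannot be told apart. Numbers in the sample identifiers fall into 3 ranges, and the lowest range holds no NZO/HlLtJ library. What the ranges stand for is not stated.

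The 26 genes have varied roles. Some act in striated muscle: myomesins cross-link myosin filaments at the M-band of the sarcomere, calsequestrins store calcium in the sarcoplasmic reticulum, and neuronal nitric oxide synthase makes the signalling gas nitric oxide. Others encode secreted signals (Edn3, Lep, Npy), receptors (Il22ra1, Grm4), an adhesion protein (Cdh22), transcription factors (Rorb, Pitx3) or proteins of secretory vesicles (Ptprn2, Syt14). Many of these are best known from skeletal muscle, fat or the nervous system rather than from the heart.

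Across the set, 7 genes had an NZO/HlLtJ mean of at least 10 CPM and 10 had a mean under 3 CPM, with a median of 6.99 CPM. In 16 of the 26, both other strains lay under 1 CPM. In 23 of the 26, all 8 NZO/HlLtJ libraries exceeded all 16 others, a pattern shown by 3.93% of the 12969 genes with an NZO/HlLtJ mean of at least 1 CPM. The rule used these same values, so nothing is read from that count. In Lep, Trim34b and BC064078 the libraries of NZO/HlLtJ overlapped those of another strain. Levels in NZO/HlLtJ per kilobase of annotated exon ran from 15.5 CPM per kb for Hist2h2aa2 and 14.4 CPM per kb for Casq1 down to 0.109 CPM per kb for Syt14.

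**Figure D1:**
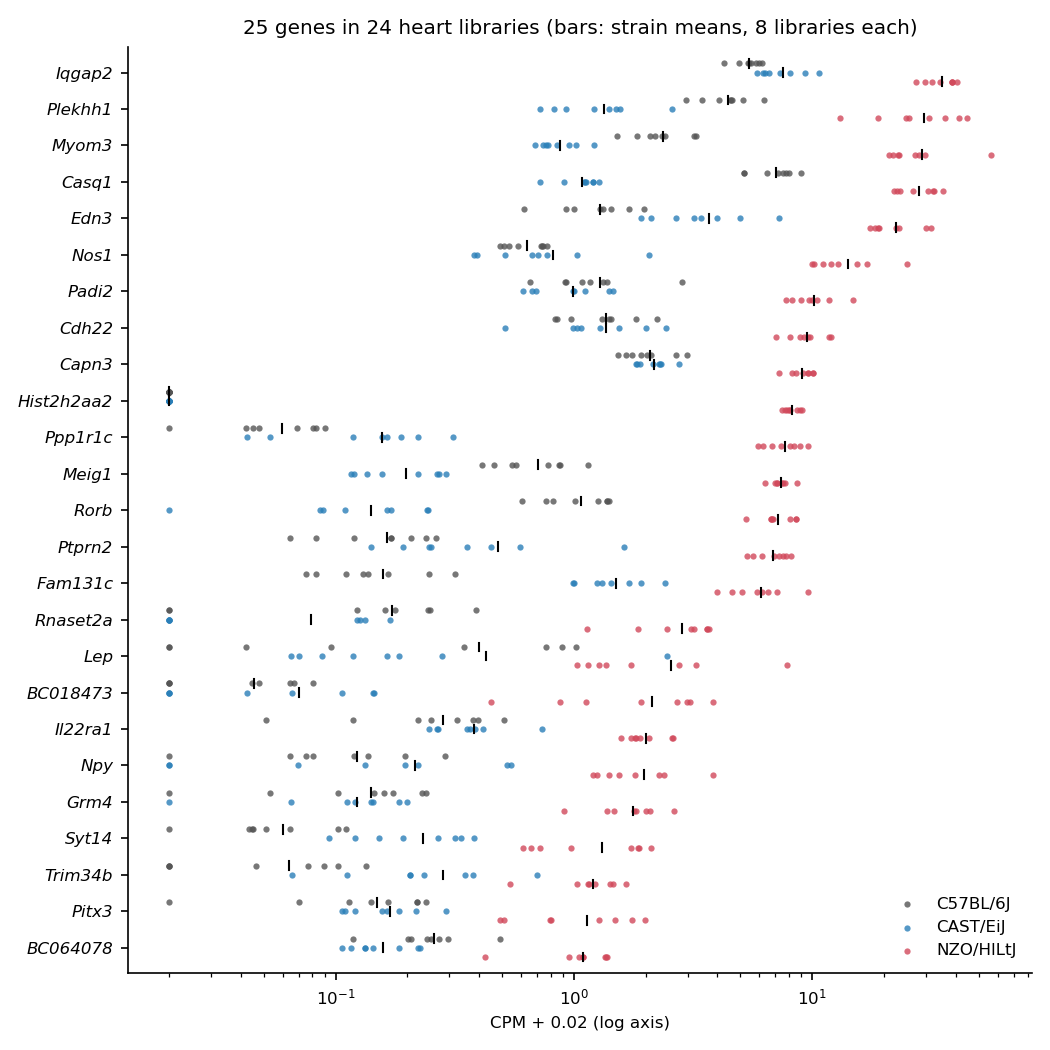
Level of 25 of the 26 genes in the 24 libraries, as CPM plus 0.02 on a log axis, with the genes ordered by their NZO/HlLtJ mean; points are libraries coloured by strain and black bars are strain means over 8 libraries. The NZO/HlLtJ points lie to the right of the points of both other strains for 22 genes and overlap them for Lep, Trim34b and BC064078.

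C57BL/6J and CAST/EiJ also differed from each other in some of these genes, a comparison of which the rule used only the higher mean. The libraries of these 2 strains did not overlap in 6 of the 26 genes, beside 31.6% of the 12969 genes. Plekhh1, Myom3, Casq1, Meig1 and Rorb were higher in C57BL/6J, and Fam131c was higher in CAST/EiJ. By mean, C57BL/6J was the higher of the pair in 9 genes and CAST/EiJ in 16, and Hist2h2aa2 had a rounded count of 0 in every library of both.

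Genes of the contractile apparatus and its calcium supply included Myom3, Casq1, Capn3 and Nos1. Myom3 (chr4:135759715-135815564, plus strand, GRCm38), the third myomesin of the M-band, reached 28.7 ± 11.5 CPM in NZO/HlLtJ (SD, n = 8), against 2.33 ± 0.608 CPM in C57BL/6J and 0.856 ± 0.177 CPM in CAST/EiJ. Its NZO/HlLtJ libraries had a lowest value of 21.1, a median of 25.0 and a highest value of 56.2 CPM. All 8 stood well clear of the other strains, whose highest library had 3.23 CPM, and the library of 56.2 CPM, from a male on 44% fat, lay far above the next at 29.8 CPM. Without it the NZO/HlLtJ mean was still 10.6 times the C57BL/6J mean, against 12.3 times with it. The other myomesin genes, chosen for display after their values were seen, did not share the pattern: Myom1 averaged 1361 CPM in NZO/HlLtJ, 1698 CPM in C57BL/6J and 1283 CPM in CAST/EiJ, and Myom2 averaged 1039, 1249 and 668 CPM.

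Casq1 (chr1:172209894-172219868, minus strand), the calsequestrin typical of fast skeletal muscle, had a lowest, median and highest level of 22.0, 28.6 and 35.3 CPM in NZO/HlLtJ. It lay between 5.13 and 8.97 CPM in C57BL/6J and between 0.698 and 1.25 CPM in CAST/EiJ, so that the 3 strains formed separate bands. With 28.1 ± 5.11 CPM in NZO/HlLtJ (SD, n = 8) and a ratio of 4.01 to C57BL/6J, Casq1 was the gene nearest to the fold threshold, and it fell below that threshold with TMM-scaled totals (3.87 times) or with medians (3.90 times). Casq2, the cardiac calsequestrin, was again a gene looked up afterwards, and averaged 826 CPM in NZO/HlLtJ, 745 CPM in C57BL/6J and 1057 CPM in CAST/EiJ.

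Capn3 (chr2:120456019-120504913, plus strand), a calcium-dependent protease known from skeletal muscle, lay at 7.27, 9.33 and 10.0 CPM (lowest, median and highest) in NZO/HlLtJ. The other strains ran from 1.51 to 2.96 CPM and from 1.81 to 2.73 CPM, below every NZO/HlLtJ library and overlapping each other. Its ratio was 4.21, and 5.06% of the 100-base stretches of its transcripts also occur in Ganc, which overlaps it on the same strand and whose NZO/HlLtJ mean was 1.17 times the higher other mean. Capn1 and Capn2, looked up afterwards, differed less, at 28.6, 23.4 and 39.1 CPM and at 103, 87.0 and 81.9 CPM in NZO/HlLtJ, C57BL/6J and CAST/EiJ.

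Nos1 (chr5:117781032-117958840, plus strand), the neuronal nitric oxide synthase, averaged 14.1 ± 5.01 CPM in NZO/HlLtJ (SD, n = 8), 0.617 ± 0.12 CPM in C57BL/6J and 0.799 ± 0.551 CPM in CAST/EiJ. Its NZO/HlLtJ libraries had a lowest, median and highest level of 9.92, 12.4 and 24.9 CPM, and the highest of the other 16 libraries had 2.05 CPM. The top value came from the same male library on 44% fat that was highest for Myom3. Against CAST/EiJ the ratio was 17.7, and 15.8 without that library. The libraries of the strains overlapped in the other nitric oxide synthases, looked up afterwards. The endothelial Nos3 averaged 34.4 CPM in NZO/HlLtJ, 34.7 CPM in C57BL/6J and 43.9 CPM in CAST/EiJ, and the inducible Nos2 averaged 7.59, 9.02 and 5.70 CPM.

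Casq1 was the only one of the 26 genes on a list of 22 skeletal muscle markers. Of the 18 other measured markers on that list, 4 had their highest mean in NZO/HlLtJ and 0 reached 4 times both other strains. Their summed level was 1432 to 1760 CPM in NZO/HlLtJ, 1223 to 1518 CPM in C57BL/6J and 1179 to 1375 CPM in CAST/EiJ, most of it Ckm, which heart muscle also expresses. Some listed markers of fast skeletal fibres were near 0 in NZO/HlLtJ and others were not. The highest NZO/HlLtJ library had 0.392 CPM for Myh4, 0.458 CPM for Mylpf, 0.0773 CPM for Tnnt3 and 0.241 CPM for Pvalb. The part of skeletal muscle cells in the level of Casq1 was not tested. Markers on the list with a higher NZO/HlLtJ mean included Atp2a1, the calcium pump of fast fibres, at 5.37 CPM against 2.01 CPM in C57BL/6J and 1.58 CPM in CAST/EiJ, and Mybpc2 at 36.1 against 19.6 and 18.9 CPM.

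The reference promoter windows of the muscle genes, and of Il22ra1, which lies next to Myom3, are shown because the results above turn on these genes and because Il22ra1 and Myom3 are the closest pair of the set. Ppp1r1c is added because, of the genes with a window and with counts in another strain, its ratio of 55.7 was the largest. Each window holds 300 bases, from 250 before to 50 after a RefSeq transcript start on GRCm38.p6, read 5′ to 3′ on the gene's strand. Capitals mark matches on either strand to CAGCTG (an E-box), GGGCGG (a GC box) or the MEF2 site, all written as they appear on the gene's strand. The bases are those of the C57BL/6J reference, and the NZO/HlLtJ bases were not analysed here. The windows of Nos1 and Capn3 lie inside the gene bounds given above, which begin at chr5:117781032 for Nos1 and chr2:120456019 for Capn3. These windows therefore do not cover the annotated gene start. The windows lie at chr4:135759465-135759764 (Myom3, plus strand), chr4:135727909-135728208 (Il22ra1, plus), chr1:172219846-172220145 (Casq1, minus), chr2:120463343-120463642 (Capn3 window 1, plus), chr2:120476659-120476958 (Capn3 window 2, plus), chr5:117866589-117866888 (Nos1, plus) and chr2:79707530-79707829 (Ppp1r1c, plus).
Myom3: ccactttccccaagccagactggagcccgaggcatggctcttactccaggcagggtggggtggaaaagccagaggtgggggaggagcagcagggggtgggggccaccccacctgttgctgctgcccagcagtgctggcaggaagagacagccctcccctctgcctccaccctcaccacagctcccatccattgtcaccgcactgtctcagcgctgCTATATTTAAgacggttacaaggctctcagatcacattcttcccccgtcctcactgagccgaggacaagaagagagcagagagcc
Il22ra1: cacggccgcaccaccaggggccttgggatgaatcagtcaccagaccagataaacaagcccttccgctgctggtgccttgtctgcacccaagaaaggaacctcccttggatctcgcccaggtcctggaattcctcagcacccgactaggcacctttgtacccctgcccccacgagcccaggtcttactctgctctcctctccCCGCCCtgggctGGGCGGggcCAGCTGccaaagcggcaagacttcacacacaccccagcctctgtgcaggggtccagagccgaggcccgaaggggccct
Casq1: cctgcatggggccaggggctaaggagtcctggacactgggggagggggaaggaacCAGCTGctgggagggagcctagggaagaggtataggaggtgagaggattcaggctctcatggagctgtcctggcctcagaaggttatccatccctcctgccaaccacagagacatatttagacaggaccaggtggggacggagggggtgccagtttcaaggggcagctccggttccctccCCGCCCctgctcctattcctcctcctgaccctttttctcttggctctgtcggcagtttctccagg
Capn3 window 1: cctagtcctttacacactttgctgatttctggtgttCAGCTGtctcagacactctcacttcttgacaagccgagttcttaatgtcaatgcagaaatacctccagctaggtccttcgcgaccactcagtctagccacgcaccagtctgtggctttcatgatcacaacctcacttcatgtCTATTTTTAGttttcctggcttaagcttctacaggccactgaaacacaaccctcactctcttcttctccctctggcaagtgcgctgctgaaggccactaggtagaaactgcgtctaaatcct
Capn3 window 2: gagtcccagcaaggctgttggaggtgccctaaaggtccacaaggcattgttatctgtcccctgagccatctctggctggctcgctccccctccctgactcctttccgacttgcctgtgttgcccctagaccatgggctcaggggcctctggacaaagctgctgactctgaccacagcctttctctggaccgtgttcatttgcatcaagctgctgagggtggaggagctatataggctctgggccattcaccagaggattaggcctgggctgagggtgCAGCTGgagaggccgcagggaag
Nos1: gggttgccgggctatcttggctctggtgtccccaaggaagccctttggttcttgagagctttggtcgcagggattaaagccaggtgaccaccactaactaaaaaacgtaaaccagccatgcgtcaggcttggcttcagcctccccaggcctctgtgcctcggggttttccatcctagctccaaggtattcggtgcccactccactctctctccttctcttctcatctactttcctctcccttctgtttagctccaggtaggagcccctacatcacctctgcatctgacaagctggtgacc
Ppp1r1c: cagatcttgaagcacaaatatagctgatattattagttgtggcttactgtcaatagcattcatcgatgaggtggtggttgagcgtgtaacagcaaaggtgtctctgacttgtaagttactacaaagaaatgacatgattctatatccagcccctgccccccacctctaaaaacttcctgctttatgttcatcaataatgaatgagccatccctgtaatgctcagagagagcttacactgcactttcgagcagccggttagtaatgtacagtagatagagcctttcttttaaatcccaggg

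Of the 26 genes, 22 had at least 1 window in the RefSeq table, 27 windows in all. BC018473, Grm4 and BC064078 were among the 4 that had none. The windows of the set had a median GC content of 63.3%, against 52.7% over all 32851 mouse windows of the same length. CAGCTG occurred in 11 of the 27 windows (40.7%), against 16.3% of all windows, and GGGCGG in 14 (51.9%), against 35.7%. The MEF2 site occurred in 2 windows (7.41%), that of Myom3 and window 1 of Capn3 shown above, against 3.19% of all windows. TATAAA occurred in 0 of the 27, against 13.6% of all windows, and the CArG box in 0, against 1.63%. The comparison windows were not matched for GC content, and 4 of the 22 genes gave 2 or more windows. A match describes the letters of these windows and is not a measured binding site.

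Secreted signals in the set were Edn3, Lep and Npy. Edn3 (chr2:174760619-174784042, plus strand) encodes endothelin-3, a peptide that acts through endothelin receptors. It averaged 22.5 ± 5.40 CPM in NZO/HlLtJ (SD, n = 8), with a lowest, median and highest level of 17.4, 20.7 and 31.4 CPM. The other strains reached at most 1.96 CPM in C57BL/6J and 7.27 CPM in CAST/EiJ, so no library of theirs came near. The receptor genes Ednra and Ednrb, looked up afterwards, averaged 46.9 and 22.7 CPM in NZO/HlLtJ, 41.7 and 19.3 CPM in C57BL/6J, and 79.2 and 18.8 CPM in CAST/EiJ.

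Lep (chr6:29060220-29073877, plus strand) encodes leptin, the hormone that fat cells secrete in proportion to fat stores. Its level was 2.53 ± 2.29 CPM in NZO/HlLtJ (SD, n = 8), 0.381 ± 0.427 CPM in C57BL/6J and 0.409 ± 0.824 CPM in CAST/EiJ. In NZO/HlLtJ the libraries had a lowest, median and highest level of 1.01, 1.53 and 7.83 CPM, and in CAST/EiJ a single library reached 2.44 CPM while the next had 0.258 CPM. The strains therefore overlapped in this gene through 1 CAST/EiJ library, and 1 NZO/HlLtJ library held much of the mean. The ratio of 6.20 became 4.35 without the highest NZO/HlLtJ library and 2.34 among the libraries on 10% fat alone.

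The same libraries that were highest for Lep were highest in their strain for fat cell markers. The NZO/HlLtJ male on 44% fat with 7.83 CPM of Lep had 24.5 CPM of Plin1, 14.7 CPM of Adipoq and 54.3 CPM of Ucp1, and the CAST/EiJ male on 10% fat with 2.44 CPM of Lep had 31.7, 17.3 and 143.7 CPM. Lep was the only one of the 26 genes on a list of 12 white adipocyte markers. Of the 11 others, 4 had their highest mean in NZO/HlLtJ and 0 reached 4 times both other strains, and their summed level was 266 to 587 CPM in NZO/HlLtJ, 343 to 543 CPM in C57BL/6J and 403 to 902 CPM in CAST/EiJ. By strain mean in NZO/HlLtJ, C57BL/6J and CAST/EiJ, Adipoq stood at 5.13, 6.88 and 5.10 CPM. Plin1 stood at 8.42, 7.98 and 7.48 CPM, and Cidec at 7.69, 5.71 and 6.93 CPM. The part of fat cells in the level of Lep was not tested. Lepr, the leptin receptor gene, looked up afterwards, averaged 15.9 CPM in NZO/HlLtJ, 12.2 CPM in CAST/EiJ and 4.31 CPM in C57BL/6J.

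Npy (chr6:49822710-49829507, plus strand) encodes neuropeptide Y, a transmitter of sympathetic nerves. It lay at 1.18, 1.66 and 3.80 CPM (lowest, median and highest) in NZO/HlLtJ and reached at most 0.269 CPM in C57BL/6J and 0.525 CPM in CAST/EiJ. The highest value was that of a female on 10% fat. In 8 libraries together Npy had 604 counts in NZO/HlLtJ, 32 in C57BL/6J and 65 in CAST/EiJ. The sum of Schwann cell and nerve markers, given above, was also highest in NZO/HlLtJ, and its part in the level of Npy was not tested.

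Receptors, adhesion and vesicle proteins were mostly low outside NZO/HlLtJ. Cdh22 (chr2:165111507-165234853, minus strand), a cadherin for adhesion between cells, stood at 9.53 ± 1.68 CPM in NZO/HlLtJ (SD, n = 8) and at 1.34 CPM in each of the other strains.

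Il22ra1 (chr4:135728172-135752140, plus strand), a subunit of the interleukin-22 receptor, lay at 1.56, 1.84 and 2.57 CPM (lowest, median and highest) in NZO/HlLtJ and at no more than 0.49 CPM in C57BL/6J and 0.718 CPM in CAST/EiJ. Grm4 (chr17:27422387-27513341, minus strand), a metabotropic glutamate receptor, averaged 1.74 ± 0.52 CPM in NZO/HlLtJ, 0.121 CPM in C57BL/6J and 0.103 CPM in CAST/EiJ. Both receptors were thus detected in every NZO/HlLtJ library, though at levels near the lower limit of the set. Ptprn2 (chr12:116485720-117276849, plus strand), a membrane protein of dense-core vesicles, averaged 6.81 ± 1.03 CPM in NZO/HlLtJ (SD, n = 8), 0.145 CPM in C57BL/6J and 0.461 CPM in CAST/EiJ. Its ratio of 14.8 became 22.8 without the CAST/EiJ male library on 10% fat that was also highest for Lep. Syt14 (chr1:192891233-193035775, minus strand), a synaptotagmin, averaged 1.30 ± 0.632 CPM in NZO/HlLtJ against 0.0402 and 0.212 CPM.

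Signalling and cytoskeletal proteins held the highest levels of the set. Iqgap2 (chr13:95627177-95891922, minus strand), a scaffold that binds small GTPases and actin, averaged 34.9 ± 4.83 CPM in NZO/HlLtJ (SD, n = 8), 5.42 ± 0.609 CPM in C57BL/6J and 7.53 ± 1.71 CPM in CAST/EiJ. Its lowest, median and highest NZO/HlLtJ levels were 27.3, 36.4 and 40.4 CPM, and the highest other library had 10.7 CPM. Its relative Iqgap1, looked up afterwards, averaged 86.5, 71.2 and 80.6 CPM. Plekhh1 (chr12:79029163-79081648, plus strand), a protein with pleckstrin homology domains, varied more, with 13.1, 28.2 and 44.4 CPM as its lowest, median and highest NZO/HlLtJ levels and at most 6.24 CPM elsewhere.

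Ppp1r1c (chr2:79707780-79818496, plus strand), an inhibitor of protein phosphatase 1, averaged 7.64 ± 1.29 CPM in NZO/HlLtJ (SD, n = 8), 0.0396 CPM in C57BL/6J and 0.137 CPM in CAST/EiJ. Over 8 libraries it had 2405 counts in NZO/HlLtJ, 12 in C57BL/6J and 45 in CAST/EiJ. Its neighbours on the chromosome, among genes with a mean of at least 1 CPM in a strain, did not share the pattern. Ssfa2 averaged 42.7, 34.5 and 42.1 CPM and Pde1a 5.49, 6.05 and 5.22 CPM in NZO/HlLtJ, C57BL/6J and CAST/EiJ. Padi2 (chr4:140906344-140952586, plus strand), an enzyme that turns arginine in proteins into citrulline, averaged 10.2 ± 2.27 CPM in NZO/HlLtJ (SD, n = 8), 1.27 ± 0.668 CPM in C57BL/6J and 0.971 ± 0.323 CPM in CAST/EiJ. The related Padi1, Padi3 and Padi4, looked up afterwards, stayed under 0.5 CPM in every library.

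Rorb (chr19:18930605-19111196, minus strand), a nuclear receptor of the retinoid-related orphan family, averaged 7.16 ± 1.13 CPM in NZO/HlLtJ (SD, n = 8), 1.06 CPM in C57BL/6J and 0.121 CPM in CAST/EiJ. Pitx3 (chr19:46135685-46148326, minus strand), a homeobox factor known from lens and dopaminergic neurons, lay near the lower limit at 1.12 ± 0.573 CPM, and its mean was under 1 CPM without 1 of the male libraries on 44% fat. Meig1 (chr2:3409043-3422648, minus strand), known from sperm formation, averaged 7.34 ± 0.673 CPM in NZO/HlLtJ (SD, n = 8), 0.688 CPM in C57BL/6J and 0.177 CPM in CAST/EiJ. Its NZO/HlLtJ libraries kept within 6.31 and 8.64 CPM, a narrow band. Fam131c (chr4:141368220-141384175, plus strand) averaged 6.10 ± 1.75 CPM in NZO/HlLtJ, 0.138 CPM in C57BL/6J and 1.48 CPM in CAST/EiJ. The noncoding genes were BC018473 at 2.10 ± 1.21 CPM in NZO/HlLtJ and at most 0.126 CPM elsewhere, and BC064078 at 1.07 ± 0.314 CPM against 0.239 and 0.138 CPM.

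Of the 26 genes, 3 share long stretches with a near-identical copy, so their levels are uncertain. Hist2h2aa2 (chr3:96239749-96240276, minus strand), a replication-type histone H2A gene, averaged 8.18 ± 0.581 CPM in NZO/HlLtJ (SD, n = 8), with a lowest library at 7.44 CPM, and its rounded count was 0 in all 16 other libraries. Against 3 counts per library, a limit that covers counting error only, it was at least 82.4-fold higher. All of its 100-base stretches, 100%, also occur in other genes, Hist2h2aa1 among them. Hist2h2aa1 went the other way, at 4.47 ± 0.759 CPM in NZO/HlLtJ (SD, n = 8), 16.1 ± 1.40 CPM in C57BL/6J and 26.1 ± 1.71 CPM in CAST/EiJ. The sum of both copies was 12.7 ± 1.31 CPM in NZO/HlLtJ, 16.1 ± 1.40 CPM in C57BL/6J and 26.1 ± 1.71 CPM in CAST/EiJ, so that the pair together was lowest, not highest, in NZO/HlLtJ.

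Rnaset2a (chr17:8128610-8148097, minus strand), a secreted ribonuclease, averaged 2.81 ± 0.937 CPM in NZO/HlLtJ (SD, n = 8), 0.153 CPM in C57BL/6J and 0.059 CPM in CAST/EiJ. Of its 100-base stretches, 66.0% also occur in other genes, chiefly its copy Rnaset2b, which averaged 82.8, 95.9 and 36.4 CPM. The sum of both copies, 85.6, 96.0 and 36.5 CPM, placed NZO/HlLtJ between the other strains. Trim34b (chr7:104300230-104336909, plus strand), a tripartite motif protein, averaged 1.18 ± 0.336 CPM in NZO/HlLtJ and shares 30.5% of its stretches with Trim34a, which ran from 5.44 to 8.23 CPM in NZO/HlLtJ, 5.61 to 9.38 CPM in C57BL/6J and 3.92 to 5.79 CPM in CAST/EiJ. Beside these 3 genes and Capn3, the other 22 share no 100-base stretch with another annotated gene. Some overlap a gene on the opposite strand, among them Iqgap2 with F2rl2, Plekhh1 with Pigh, Pitx3 with Elovl3 and Trim34b with Trim12a, and how the counting treated strand is not given in the sources used here.

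**Figure D2:**
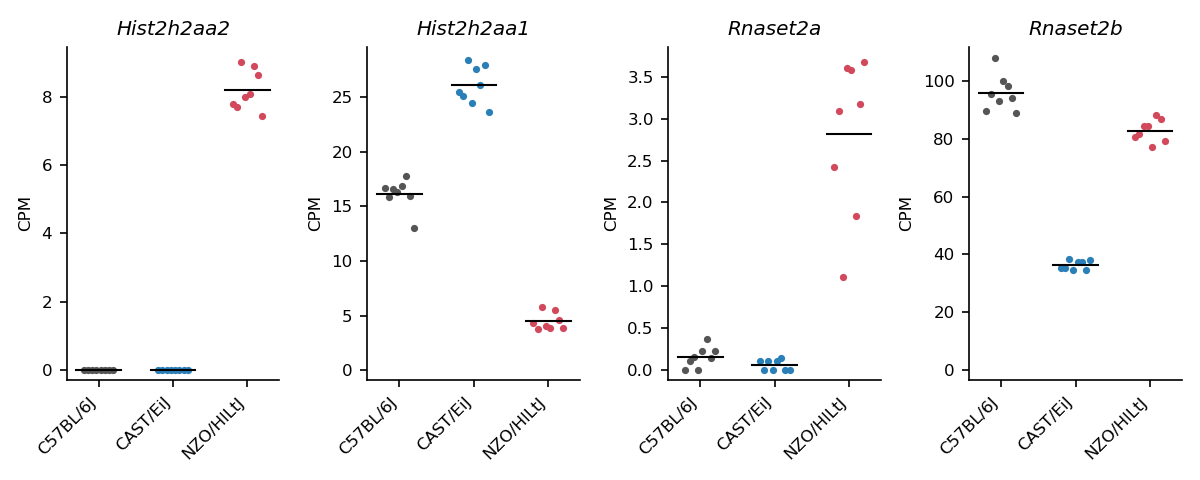
Level in CPM of 2 genes of the set, Hist2h2aa2 and Rnaset2a, and of their near-identical copies Hist2h2aa1 and Rnaset2b, in the 8 libraries of each strain; points are libraries and lines are strain means, and each panel has its own axis. Hist2h2aa2 is at 0 in 16 libraries and near 8 CPM in NZO/HlLtJ, where Hist2h2aa1 is lowest at 4.47 CPM.

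The 26 genes lay on 12 chromosomes, with 5 on chromosome 2, 5 on chromosome 4 and 3 on chromosome 6. Of these, 4 started within 1 Mb of another, as 2 pairs on chromosome 4. Il22ra1 and Myom3 are neighbours, 7.58 kb apart from the end of the first to the start of the second. No other gene with a mean of at least 1 CPM in a strain starts between them. On the far side of Il22ra1, Ifnlr1, an interferon lambda receptor gene, was lower in NZO/HlLtJ, at 1.84 ± 0.488 CPM against 4.17 ± 1.03 CPM in C57BL/6J and 5.79 ± 0.747 CPM in CAST/EiJ (SD, n = 8). Cnr2, a cannabinoid receptor gene 136 kb from the start of Myom3, was higher, at 1.42 ± 0.268 CPM against 0.603 and 0.588 CPM. The genes Padi2 and Fam131c start 462 kb apart. Of the genes between them, 9 had a mean of at least 1 CPM in a strain, and none of these reached 2 times both other strains.

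**Figure D3:**
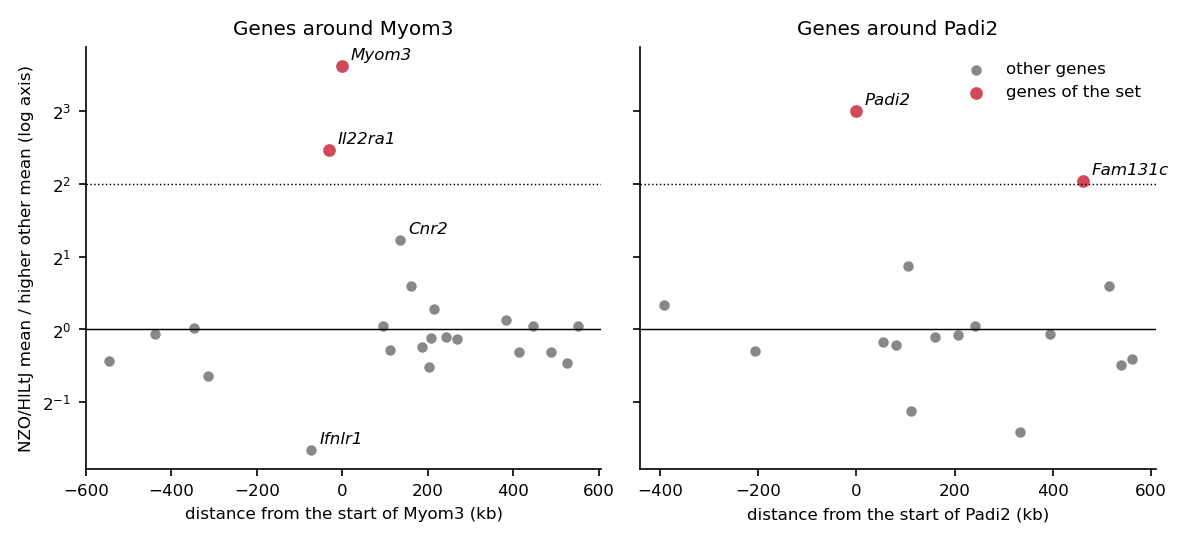
Ratio of the NZO/HlLtJ mean to the higher other strain mean, on a log axis, for genes with a mean of at least 1 CPM in a strain, against the distance of their start from that of Myom3 (left) or Padi2 (right) in kb; the dotted line marks a ratio of 4. Myom3 (12.3) and Il22ra1 (5.52) stand beside Ifnlr1 (0.317), and the 9 genes between Padi2 and Fam131c lie between 0.377 and 1.83.

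Within 0.5 Mb of the 26 genes lay 303 other genes with a mean of at least 1 CPM in a strain. Of these, 8 (2.64%) reached 2 times both other strains in NZO/HlLtJ, beside 1.14% of the 13548 such genes over the whole genome. The strongest of the 8 was 2310001H17Rik, 0.215 Mb from BC064078, at 9.87 CPM against 1.36 CPM in C57BL/6J and 1.04 CPM in CAST/EiJ. Its ratio of 7.28 met both thresholds of the rule, and it was one of the 22 genes removed by symbol. The 8 also include Mgat5b near BC018473 (1.49 CPM against 0.444 and 0.0407 CPM), Clec1b near BC064078 (5.73 CPM against 1.66 and 2.52 CPM), Camk1g near Syt14 and Trim6 near Trim34b. In the opposite direction, 6 (1.98%) had an NZO/HlLtJ mean at or under 0.5 times both other strains, beside 1.06% of the 13548 genes. Among the 6 were Hist2h2aa1, Hist2h2be and Hist2h3c2 around Hist2h2aa2. The median ratio of the 303 neighbours was 0.924 and that of all 13548 genes was 0.922.

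Within NZO/HlLtJ the genes differed in how evenly they were expressed. The coefficient of variation over the 8 libraries had a median of 26.2% and ran from 7.10% for Hist2h2aa2 to 90.2% for Lep. A single male library on 44% fat, replicate 2, was the highest of the 8 for 9 genes and the lowest for 10. Myom3, Nos1, Edn3 and Fam131c were among those at their highest there, and Plekhh1, Capn3, Npy, Syt14 and BC064078 among those at their lowest. The summed level of 11 measured cardiac stress genes was also highest in that library, at 8806 CPM against 4909 to 7031 CPM in the other NZO/HlLtJ libraries. It was not the only list to stand apart there: of 24 marker lists, 3 had their highest NZO/HlLtJ sum in this library and 11 their lowest. The others at their highest were PPAR-responsive lipid genes, at 15634 CPM against 9796 to 12316 CPM, and fasting and glucocorticoid targets, at 1431 CPM against 678 to 1146 CPM. Those at their lowest included cardiomyocyte markers, at 65412 CPM against 70148 to 79905 CPM, atrial markers, at 1196 CPM against 1702 to 3218 CPM, and skeletal muscle markers, at 1432 CPM against 1511 to 1760 CPM. The part of these lists in the levels of the 26 genes was not tested. Without this library 24 of the 26 genes still met the rule, and Casq1 and Fam131c did not.

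**Figure D4:**
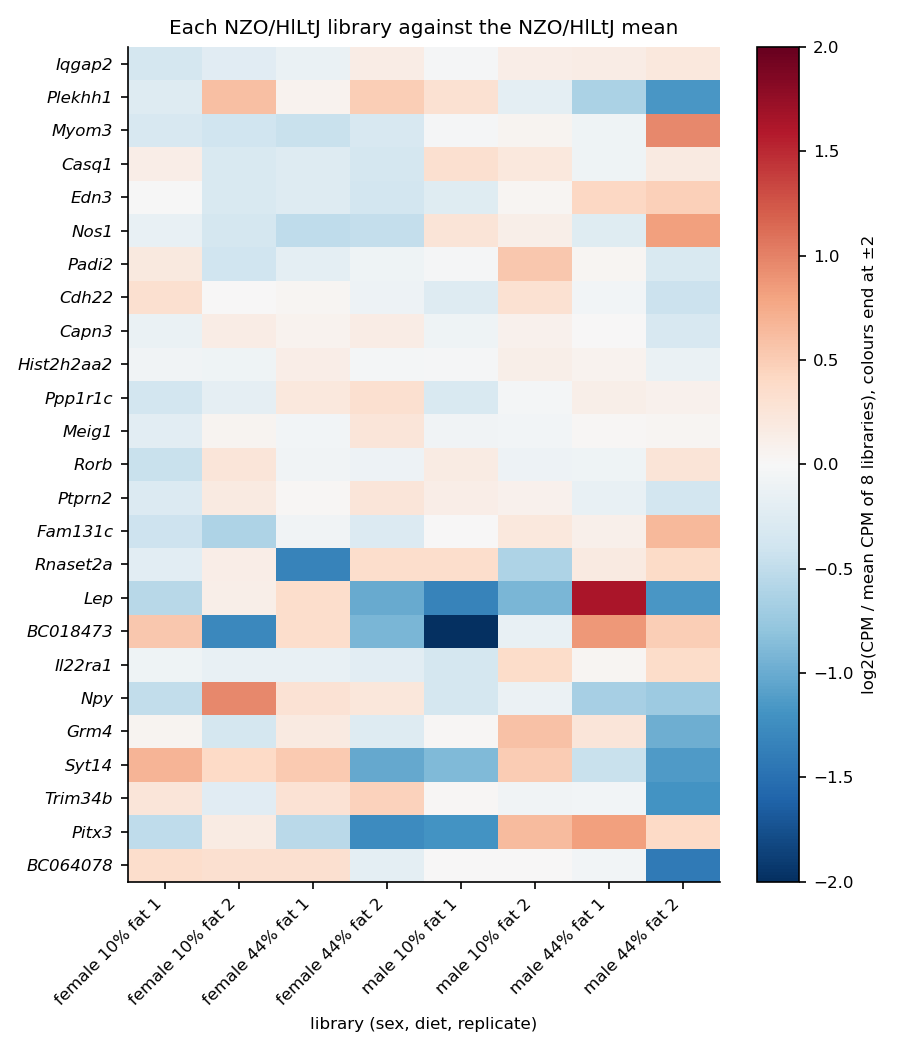
Level of 25 of the 26 genes in each NZO/HlLtJ library, as log2 of the ratio to the mean of the 8 libraries (red above, blue below), with genes as horizontal bands and libraries as columns. The male 44% fat replicate 2 column holds the highest value of 8 genes and the lowest of 10.

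Diet and sex effects inside NZO/HlLtJ were not used in choosing the genes and could be tested, with 4 libraries against 4. All 26 genes entered the tests over 17203 genes with edgeR's quasi-likelihood method, with a call at a p under 0.05 after Benjamini-Hochberg adjustment. None of the 26 was called for diet (44% minus 10% fat), beside 0% of all genes tested, and 2 of the 26 had an unadjusted p under 0.05, beside 1233 of the 17203 genes. DESeq2 and limma-voom called 0 of the 26 as well, with 2 and 5 at an unadjusted p under 0.05, beside 1099 and 1224 of all genes. The median log2 diet effect of the 26 was -0.01, as it was over all genes, and 13 of the 26 were positive, beside 47.9% of all genes. Without the female replicate 2 library on 10% fat the median was 0.10, with 17 positive, beside 49.9% of all genes.

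Ppp1r1c and Iqgap2 had the smallest p-values for diet. Ppp1r1c stood at 6.57 ± 0.653 CPM on 10% fat and 8.70 ± 0.654 CPM on 44% fat (SD, n = 4). The 4 libraries on 44% fat, from 8.07 to 9.55 CPM, lay above the 4 on 10% fat, from 5.91 to 7.39 CPM. The log2 difference was 0.40 (SE 0.18), with an edgeR adjusted p of 0.673. Iqgap2 had a log2 diet effect of 0.21 (SE 0.09, edgeR adjusted p = 0.646), and its libraries overlapped between diets, from 27.3 to 38.4 CPM on 10% fat and from 31.8 to 40.4 CPM on 44% fat.

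For sex (female minus male), edgeR called 0 of the 26 genes, beside 0.134% of all genes tested (23 genes), and 6 of the 26 had an unadjusted p under 0.05, beside 1209 of all genes. DESeq2 called 0 of the 26 with 6 at an unadjusted p under 0.05, and limma-voom 0 with 10, beside 1049 and 1222 of all genes. Myom3 was lower in females, at 21.1 to 23.0 CPM against 26.9 to 56.2 CPM in males, with no overlap. Its log2 sex effect was -0.62 (SE 0.22, edgeR adjusted p = 0.570). Leaving out 1 male library on 44% fat, replicate 1, made this a called difference of -0.86 (SE 0.17, adjusted p = 0.0358), while leaving out the other, replicate 2, gave -0.27. Over the 24 libraries left out in turn the adjusted p of Myom3 ran from 0.0358 to 1.00.

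Plekhh1 had the smallest sex p-value of the set and was higher in females, at 24.6 to 44.4 CPM against 13.1 to 36.0 CPM in males, with overlap (log2 difference 0.70, SE 0.22, edgeR adjusted p = 0.525). Fam131c lay at 3.95 to 5.82 CPM in females and 6.14 to 9.60 CPM in males, without overlap, and had a log2 difference of -0.58 (SE 0.22, edgeR adjusted p = 0.592). Nos1 (-0.64), Casq1 (-0.33) and Iqgap2 (-0.23) also had negative log2 differences, none of them called. The difference of Nos1 was -0.29 without the male replicate 2 library on 44% fat. Over the 26 genes the median log2 sex effect was -0.06, against 0.00 over all genes, and 12 of 26 were positive, beside 50.1% of all genes. The median was 0.03, with 14 positive, without either of 2 male libraries, replicate 2 on 10% fat or replicate 1 on 44% fat. Of all genes, 51.2% and 52.7% were positive without these libraries.

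**Figure D5:**
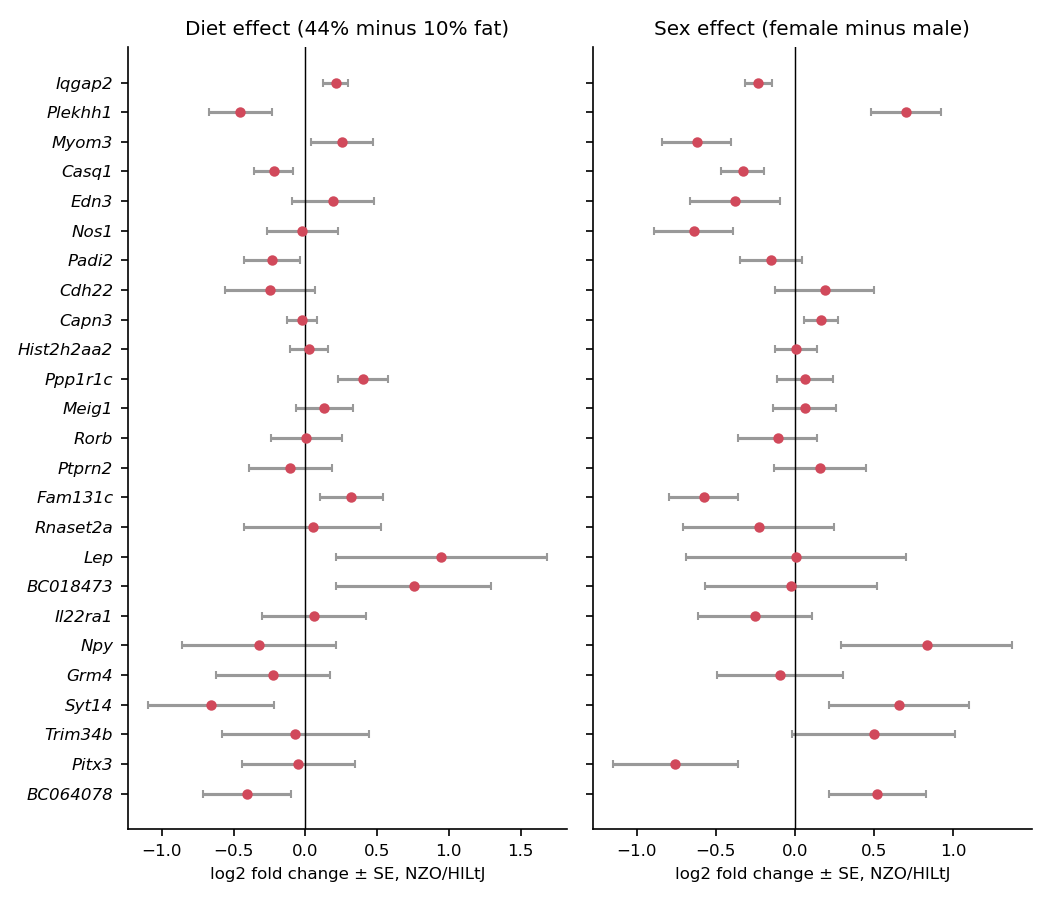
Log2 fold change with its standard error (bars) for 25 of the 26 genes in NZO/HlLtJ, for diet (left, 44% minus 10% fat) and sex (right, female minus male), 4 libraries against 4. Ppp1r1c lies at 0.40 for diet, Plekhh1 at 0.70 and Myom3 at -0.62 for sex, and no gene was called.

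The difference of the diet effect between the sexes called 0 of the 26 genes and 0% of all genes with edgeR, and DESeq2 and limma-voom also called 0 of the 26. At an unadjusted p under 0.05 there was 1 of the 26 and 692 of all genes with edgeR. DESeq2 and limma-voom had 1 and 2 of the 26 there, beside 609 and 681 of all genes. The largest support was for Plekhh1, with a log2 difference of 1.06 (SE 0.44, edgeR adjusted p = 1.00), followed by Pitx3 at -1.32 (SE 0.79, edgeR adjusted p = 1.00). With each library left out in turn Plekhh1 ran from 0.68, without the female replicate 1 library on 10% fat, to 1.58. Pitx3 ran from -2.46 to -0.71, the values without the male replicate 2 and replicate 1 libraries on 10% fat. The median of the 26 was 0.12, with 16 positive, beside a median of -0.005 and 48.9% positive over all genes. In NZO/HlLtJ this contrast divides the libraries exactly as the identifier ranges do, so the 2 cannot be told apart. With the identifier range as a block, which rests on the other strains, the median was -0.56, with 10 positive. Over all genes it was then -0.026, with 47.2% positive.

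Whether NZO/HlLtJ responded to diet or differed by sex in another way than the mean of C57BL/6J and CAST/EiJ was tested as a difference of effects. Both other strains lay under 1 CPM in 16 of the 26 genes, and Hist2h2aa2 had a rounded count of 0 in all their libraries. Ppp1r1c had 12 counts in all of C57BL/6J and 45 in CAST/EiJ, and Npy had 32 and 65. In such genes the effects of the other strains rest on few counts or cannot be estimated, so the lack of a call there carries no conclusion. For diet, edgeR called 0 of the 26 genes and 0% of all genes, with 1 of 26 and 716 of all genes at an unadjusted p under 0.05, and DESeq2 and limma-voom called 0 of the 26 with 1 each. Iqgap2 had the smallest p, with a log2 difference of 0.34 (SE 0.11, edgeR adjusted p = 1.00), and Ppp1r1c followed at 0.88 (SE 0.48, edgeR adjusted p = 1.00). The value of Ppp1r1c was 1.52 without the C57BL/6J female 44% fat replicate 2 library and 0.53 without the CAST/EiJ male 10% fat replicate 1 library. For sex, edgeR called 0 of the 26 and 0% of all genes, with 3 of 26 and 1146 of all genes at an unadjusted p under 0.05, and DESeq2 and limma-voom called 0 of the 26 with 3 each. Npy had a log2 difference of 2.64 (SE 0.87, edgeR adjusted p = 0.602), from levels of 2.46 CPM in females and 1.43 CPM in males of NZO/HlLtJ, beside 0.0497 and 0.156 CPM in C57BL/6J and 0.0907 and 0.301 CPM in CAST/EiJ. With each library left out in turn it ran from 1.03, without the CAST/EiJ male 10% fat replicate 1 library, to 3.85. Pitx3 (-1.65) and Capn3 (0.32) were the other genes with an unadjusted p under 0.05, and Pitx3 ran from -2.43 to -1.08, the latter without the NZO/HlLtJ male 10% fat replicate 2 library.

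The genes just outside the limits show how the set ends. Just inside the fold limit were Casq1 (4.01), Fam131c (4.11) and Capn3 (4.21), and just outside were Cntfr (3.97), Bdh1 (3.91) and Hpn (3.90), at NZO/HlLtJ means of 14.0, 213 and 4.15 CPM. Just inside the level limit were BC064078 (1.07 CPM), Pitx3 (1.12 CPM) and Trim34b (1.18 CPM), and just outside were Trdc (0.850 CPM), Ugt1a6b (0.797 CPM) and Aox2 (0.716 CPM). Among genes left out by symbol, Hba-a1 averaged 2190 CPM in NZO/HlLtJ, 6.20 CPM in C57BL/6J and 21.9 CPM in CAST/EiJ, Acta1 averaged 1792, 152 and 253 CPM, and Hamp2 66.3, 0.0265 and 0.0127 CPM. Stretches shared with other genes were not examined for these genes. The summed level of 8 measured erythroid markers, Hba-a1 and Hba-a2 among them, overlapped between strains. It was 4822 to 25438 CPM in NZO/HlLtJ, 2777 to 8859 CPM in C57BL/6J and 4415 to 22248 CPM in CAST/EiJ.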

How the data were processed

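Polyadenylated RNA of 24 heart libraries was sequenced in paired reads of 100 bases, per the labels' protocols. The authors deposited expected counts per gene, which are estimates (19.3% differed from a whole number by more than 1e-06), and a log2-like matrix of variance-stabilized values. The submitters' processing notes name GRCm38 and DESeq2 without a version. The names of the aligner and counting program and the strand setting were not given in the sources used here. Gene positions came from the gene annotation that the authors deposited. Gene types, exon lengths and overlaps came from the GENCODE M21 annotation of GRCm38, and promoter windows from RefSeq (GRCm38.p6). The deposited bounds were the same as those of GENCODE M21 for 22 genes of the set. They differed for Plekhh1, Rnaset2a, Grm4 and Trim34b.

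CPM values were computed from the deposited expected counts and the column totals. For tests, expected counts were rounded and genes filtered with filterByExpr (minimum count 10, minimum total 15), which left 17203 of 20961 genes. A quasi-likelihood model with 1 mean for each of 12 groups was fitted to all 24 libraries with edgeR 4.0.16 in R 4.3.3 (TMM factors, robust estimation), and p-values were adjusted by Benjamini-Hochberg over all genes tested, with a threshold of 0.05. The biological coefficient of variation was 0.127. Each edgeR standard error (SE) was derived from the test, as the size of the log2 difference divided by the square root of the F statistic. The scripts were tested on simulated data. Alternatives were DESeq2 1.42.0, limma 3.58.1 (voom, and on the deposited log2-like values), RLE factors, no filter, NZO/HlLtJ libraries alone, identifier range as a block, each library left out, and other thresholds of the rule. The identifier range was added as a block to 3 of the contrasts after the data were seen. Groups came from titles and characteristics, and replicate numbers from accession order.

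The 26 genes, the marker lists and the tests were chosen with earlier results of these data known. Named with full values were genes of high level or ratio, those of smallest p per contrast, those that leave the set when 1 library is omitted, those near another, those near a threshold and those on a list. The values of 1 of the 26 genes are not reported here, and it is counted in the totals. Related genes described as looked up afterwards were chosen after their values were seen.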

Additional observations from a re-analysis of the deposited data

Results flagged for a closer look

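In each strain, a library was singled out for a gene where its gap to the nearest other of the 8 libraries was large for the range of the strain (Dixon's criterion at 95%). The criterion's nominal rate of about 1 in 20 assumes normally distributed values. The 8 libraries mix both sexes and both diets and many counts are low, so that rate cannot be taken as the share due to chance. Of 71 groups of gene and strain, 11 were singled out, and nothing is read from that count. In NZO/HlLtJ, the male 44% fat replicate 2 library was highest for Myom3 (56.2 CPM, next 29.8) and Nos1 (24.9 CPM, next 17.0) and lowest for BC064078 (0.402 CPM, next 0.935). The male 44% fat replicate 1 library was highest for Lep (7.83 CPM, next 3.25), and the female 10% fat replicate 2 library for Npy (3.80 CPM, next 2.37).

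In CAST/EiJ, the male 10% fat replicate 1 library was highest for Lep (2.44 CPM, next 0.258), Nos1 (2.05 CPM, next 1.01) and Ptprn2 (1.60 CPM, next 0.574). The female 10% fat replicate 2 library was highest for Plekhh1 (2.55 CPM, next 1.54) and Il22ra1 (0.718 CPM, next 0.396). In C57BL/6J, the male 44% fat replicate 2 library was highest for Padi2 (2.81 CPM, next 1.36). The first of these CAST/EiJ libraries also had the highest summed white adipocyte markers of the strain, 902 CPM, and their part in these values was not tested.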

How the results depend on the processing

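The number of genes in the set was 26, and it was 43 with a threshold of 3 times, 12 with 8 times, 16 with a minimum of 5 CPM, and 25 to 29 when each library was left out in turn. Casq1 left the set with TMM-scaled totals, with medians and without any 1 of 7 single libraries, Fam131c without any 1 of 3 and Pitx3 without 1. Within 1 sex or 1 diet the rule was met by 27 to 29 genes: Casq1 and Pitx3 failed it in females, BC064078, Capn3 and Trim34b in males, Capn3, Fam131c and Lep on 10% fat, and BC064078, Capn3, Casq1 and Trim34b on 44% fat. None of the 26 genes was called by any other tool or setting, except Myom3 for sex (-0.86) without the NZO/HlLtJ male 44% fat replicate 1 library, so the count of the 26 called for sex ran from 0 to 1. Over all genes, the calls for diet in NZO/HlLtJ were 0 with edgeR, 13 with DESeq2, 2 with limma on the deposited values and 0 to 113 with a library left out, the 113 without that same library. For sex they were 23, against 58 with DESeq2, 35 with limma on the deposited values, 15 with the NZO/HlLtJ libraries alone and 9 to 67 with a library left out. The sex by diet difference gave 0 to 5 with a library left out. The difference of the diet effect from the other strains gave 1 with DESeq2, 1 with limma on the deposited values and 0 to 7 with a library left out, and that of the sex effect gave 21 with DESeq2 and 0 to 9 with a library left out. The cause of these changes was not tested. No named gene's diet or sex difference changed its direction, but the medians over the 26 genes, which lie near 0, did: that for diet was 0.02 with limma on the deposited values, and the other changes stand beside the results. On those deposited values, low genes had smaller differences from the other strains, 0.47 for Npy, -0.29 for Pitx3 and 0.30 for Ppp1r1c. No paired analysis was possible because the titles carry no replicate numbers. With 2 libraries per group and a few counts per library in the low genes, ratios such as that of Ppp1r1c are imprecise, and depth limits what can be said of genes near 1 CPM.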
